A study of Homo sapiens with 6 samples.

Results

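The genes described here are 33 genes of cholesterol synthesis, delivery and efflux, out of 78686 gene rows in the deposited tables. They were chosen by symbol, from what they are known to do and not from a threshold on their values, though with earlier results of these data known. All 33 were found by Ensembl identifier, and all 33 passed the filter on low counts that left 17627 genes for testing. By role, 9 act in the mevalonate steps to squalene, counting GGPS1, which acts on a branch to protein prenylation. Another 10 act in the sterol steps after squalene, and 3 are SREBP2 and its regulators. The remaining genes are 5 that deliver or store cholesterol inside the cell, and 6 that are the liver X receptors (LXR) and their efflux targets. For contrast between the opposed programmes, 21 of them (the 19 enzymes, INSIG1 and STARD4) are called the SREBP2 synthesis genes, and 5 (ABCA1, ABCG1, MYLIP, APOE and NR1H3) the LXR efflux genes.

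RNA came from THP-1, an established human monocytic leukaemia line grown in RPMI medium with fetal bovine serum. The EV group was THP-1 stably transduced with an empty vector, and the PTX4-OE group was THP-1 stably transduced with a construct for overexpression of PTX4, a secreted protein of the pentraxin family. Each group had 3 libraries of poly(A)-enriched RNA, which the labels call biological replicates, number 1 to 3 in both groups and give the same batch. The promoter of the construct, and whether each group was 1 clone or a pool of transduced cells, are not given in the sources used here.

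A cell that runs short of cholesterol moves SREBP2, held in the endoplasmic reticulum by SCAP and INSIG1, to the Golgi. There it is cut to release a transcription factor that turns on nearly every enzyme from acetyl-CoA to cholesterol. A cell with a surplus makes oxysterols, which retain SREBP2 and activate LXR, and LXR turns on the exporters ABCA1 and ABCG1. In macrophages this balance decides whether lipid taken up is exported or stored as cholesteryl ester.

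Bases from 5 RefSeq promoters (GRCh38.p14) show matches of letters to elements known from these programmes. Whether the elements act in these cells was not tested. In SREBF2 capitals mark the core of a sterol regulatory element (TCACNCCAC) and a CCAAT box, the site of the factor NF-Y, here read on the opposite strand as ATTGG. In INSIG1, HMGCS1 and FDPS capitals mark CCAAT boxes on either strand, because NF-Y is a known partner of SREBP2. In ABCA1 they mark both half-sites of a match to an LXR direct repeat, with 2 mismatches and read on the opposite strand. Each stretch of 70 bases lies before its RefSeq start, 5′ to 3′ on the strand of the gene.
SREBF2, chr22:41832953-41833022, plus strand: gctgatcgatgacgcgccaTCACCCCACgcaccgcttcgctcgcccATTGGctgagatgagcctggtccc
INSIG1, chr7:155297675-155297744, plus strand: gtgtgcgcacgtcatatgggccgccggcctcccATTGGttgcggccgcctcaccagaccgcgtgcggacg
HMGCS1, chr5:43313503-43313572, minus strand: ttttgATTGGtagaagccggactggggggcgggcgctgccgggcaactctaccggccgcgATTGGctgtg
FDPS, chr1:155308684-155308753, plus strand: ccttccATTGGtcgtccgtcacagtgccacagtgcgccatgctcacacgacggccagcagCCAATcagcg
ABCA1, chr9:104928182-104928251, minus strand: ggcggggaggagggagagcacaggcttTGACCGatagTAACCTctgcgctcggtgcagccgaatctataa
In the GENCODE annotation the SREBF2, INSIG1 and ABCA1 stretches lie upstream of the gene, and the last 10 bases of HMGCS1 and the last 6 of FDPS fall within it.

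RefSeq windows of 300 bases (250 before to 50 after a start) were found for 29 of the 33 genes, with 44 windows in all because some genes have several starts. FDFT1, SQLE, ACAT2 and ABCG1 had no entry. A CCAAT box on either strand was present in 18 of the 25 windows of SREBP2 synthesis genes (72%), in 4 of the 9 windows of LXR efflux genes (44.4%) and in 34.6% of all 35116 windows. The GC box GGGCGG, bound by Sp1, was present in 22 of 25 (88%), in 5 of 9 (55.6%) and in 45% of all windows. The sterol element core was present in the SREBF2 window alone among the 44, and in 0 of the 25 windows of synthesis genes, against 1.13% of all windows. The LXR direct repeat, taken as 2 copies of AGGTCA with 4 bases between them and at most 2 mismatches over the 12 half-site bases, was present in 1 of the 44, the ABCA1 window, against 2.34% of all windows. Both strands were searched for each motif, and matches of different motifs were counted separately even where they shared bases. These are matches of letters in a short window, and the RNA data hold no measurement of binding there.

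The libraries held 29670641 to 37718207 expected counts each, with 4.75% to 5.91% of them from mitochondrially encoded genes except in PTX4-OE replicate 1, where that share was 2.79%. PTX4, the overexpressed gene, had at most 4 expected counts in an EV library and 24633, 14398 and 15782 in the PTX4-OE libraries. All 8 monocytic markers had a mean TPM (transcripts per 1000000 transcripts, corrected for length) of at least 1, and their summed level was 624 to 696 TPM in EV and 586 to 701 TPM in PTX4-OE. SPI1 was the highest of them, at 252.5 to 287.3 TPM, whereas CD14 (0.84 to 1.83 TPM) and ITGAM (2.34 to 3.31 TPM) were low. The T cell markers CD2, CD3D and CD3E were at 0 in every library, and the B cell, erythroid, epithelial, fibroblast and hepatocyte lists summed to at most 2.07 TPM. STAR, which carries cholesterol into mitochondria and was on the list for steroid-making cells, had 27.25 to 31.72 TPM, while CYP11A1 and HSD3B2 of that list had at most 0.05 TPM.

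**Figure D1:**
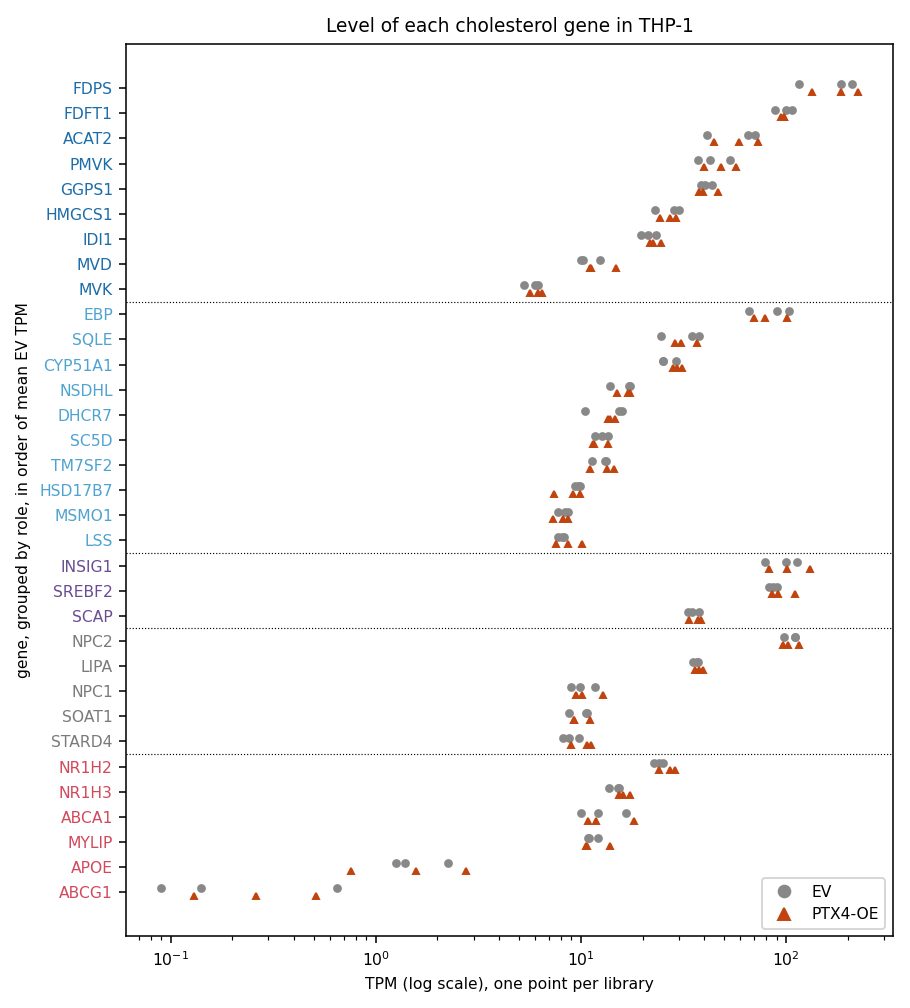
Level of each cholesterol gene in TPM (log axis) in the 3 EV libraries (grey circles) and the 3 PTX4-OE libraries (orange triangles), with genes grouped by role. ABCG1 and APOE sit far to the left of the other 31 genes, and the ranges of both constructs overlap for every gene.

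On the length-corrected TPM scale, the cells expressed the whole synthesis chain. FDPS, which joins isoprenoid units into farnesyl pyrophosphate, had the highest level, at 170 ± 48.1 TPM in EV and 182 ± 45.6 TPM in PTX4-OE (mean ± SD, n = 3 in each). FDFT1, which commits farnesyl pyrophosphate to squalene, came second among the enzymes at 98.3 ± 9.47 and 96.6 ± 2.08 TPM, and its range in EV lay below that of FDPS. EBP, the sterol isomerase, followed at 86.9 ± 18.9 and 83.3 ± 15.8 TPM, and its range overlapped that of FDFT1. MVK, which phosphorylates mevalonate, had the lowest level of the enzymes, at 5.82 ± 0.488 and 6.10 ± 0.413 TPM.

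Outside the enzymes, NPC2, the soluble lysosomal carrier of cholesterol, reached 107 ± 7.35 TPM in EV. INSIG1 at 97.3 ± 17.3 TPM and SREBF2 at 86.3 ± 3.83 TPM overlapped in range between EV libraries. The efflux side was uneven. In EV, NR1H3 (LXR alpha) had 14.8 ± 0.870 TPM and NR1H2 (LXR beta) 24.0 ± 1.31 TPM. ABCA1, which loads lipid-poor apolipoprotein, had 12.9 ± 3.39 TPM and MYLIP, a ubiquitin ligase that removes lipoprotein receptors, 11.3 ± 0.697 TPM, and their ranges overlapped. APOE, the apolipoprotein that macrophages secrete with exported lipid, had 1.63 ± 0.538 TPM, and ABCG1, which exports cholesterol to mature high-density lipoprotein, only 0.293 ± 0.310 TPM. ABCG1 rested on 8 to 62 expected counts per library and APOE on 19 to 70, whereas every other member had at least 229 in each library.

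The comparison of PTX4-OE with EV asked whether overexpression moved either programme. No cholesterol gene passed the test. With edgeR's quasi-likelihood test and Benjamini-Hochberg adjustment over all genes, 0 of the 33 were called, where 0.00567% of all tested genes (1 gene, PTX4) were called. With replicate number as a block, 0 of the 33 were called, where 0.261% of all tested genes (46 genes) were. At an unadjusted p under 0.05 there were 0 of 33 in both fits, against 131 and 1548 of all tested genes, and DESeq2 called 0 of 33 with and without the block. For no member did the range of the EV libraries stay apart from that of the PTX4-OE libraries, as it did for 4.1% of all tested genes. In bulk RNA, fewer cells expressing a gene and less RNA per cell cannot be told apart.

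The intervals show what size of change these libraries could have hidden. With the block, 29 of the 33 genes had a 95% confidence interval wholly within 1.25-fold of no change, 31 within 1.5-fold and 32 within 2-fold. Without the block these numbers were 7, 27 and 31. ABCG1 had the widest interval of the blocked fit, from -0.35 to 1.20 on the log2 scale, and APOE the next, from -0.71 to 0.60. The median log2 fold change with the block was 0.0043 over the 21 SREBP2 synthesis genes, 0.027 over the 5 LXR efflux genes and 0.0053 over all genes tested.

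**Figure D2:**
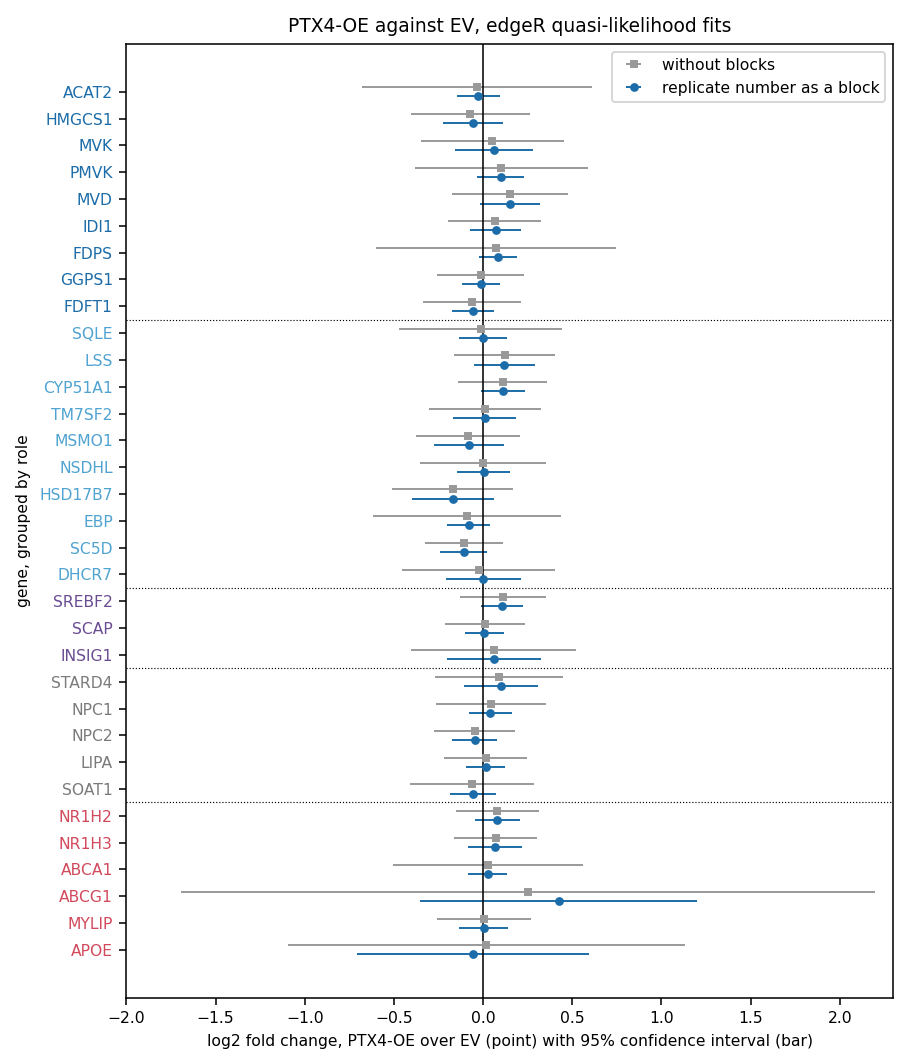
Log2 fold change of PTX4-OE over EV for each cholesterol gene (points) with its 95% confidence interval (bars), without blocks (grey squares) and with replicate number as a block (blue circles). Every interval crosses 0 in both fits, and those of ABCG1 and APOE are the widest.

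Values per gene are given below as CPM, counts per 1000000 of the scaled library, in the order of replicates 1, 2 and 3. Among the mevalonate genes, the members furthest from 0 in the blocked fit were MVD and PMVK. MVD, which decarboxylates mevalonate pyrophosphate, had 12.1, 12.4 and 14.2 CPM in EV and 13.2, 13.3 and 16.5 CPM in PTX4-OE. PMVK, the kinase before it, had 30.5, 24.2 and 20.3 CPM in EV and 32.4, 27.3 and 20.9 CPM in PTX4-OE. In both genes the PTX4-OE library was the higher one of each pair, yet the ranges of the constructs overlapped. The log2 fold change with the block was 0.15 ± 0.079 (SE) for MVD (edgeR adjusted p = 0.627) and 0.099 ± 0.062 for PMVK (edgeR adjusted p = 0.698).

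HMGCS1, the synthase that makes the substrate of mevalonate synthesis and a classical SREBP2 target, had 79.6, 75.4 and 57.1 CPM in EV and 69.6, 62.8 and 69.4 CPM in PTX4-OE. The EV libraries numbered 1 and 2 were the highest of the 6 and EV replicate 3 was the lowest. IDI1, which isomerises isopentenyl pyrophosphate, had 42.1, 38.9 and 33.8 CPM in EV and 40.4, 38.8 and 40.9 CPM in PTX4-OE. EV replicate 3 was again the lowest library, and the other 5 lay close together. Their blocked log2 fold changes were -0.058 ± 0.079 and 0.070 ± 0.066, with edgeR adjusted p = 0.892 and 0.826.

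Of the enzymes after squalene, HSD17B7 and LSS lay furthest from 0. HSD17B7, a sterol ketoreductase, had 9.61, 9.61 and 8.15 CPM in EV and 7.24, 8.57 and 8.50 CPM in PTX4-OE, with a blocked log2 fold change of -0.17 ± 0.11 (edgeR adjusted p = 0.711). LSS, which closes the sterol rings, had 28.6, 28.2 and 25.2 CPM in EV and 26.3, 29.9 and 33.01 CPM in PTX4-OE, and 0.12 ± 0.080 (edgeR adjusted p = 0.724). The spread of LSS within PTX4-OE was wider than the difference between the construct means. SQLE, the squalene epoxidase and a rate-limiting step, had 70, 63.6 and 44.4 CPM in EV and 68.7, 56.8 and 50.9 CPM in PTX4-OE. Both libraries numbered 3 were the lowest for SQLE, and its blocked log2 fold change was 0.0012 ± 0.063.

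SREBF2, the gene of SREBP2, had 327, 346 and 337 CPM in EV and 335, 355 and 402 CPM in PTX4-OE. Each PTX4-OE library was above the EV library of the same number, with an overlap between groups, and the log2 fold change was 0.11 ± 0.055 with the smallest adjusted p of the 33 genes (edgeR adjusted p = 0.602). INSIG1, which retains SREBP2 and is itself a target, had 208, 235 and 154 CPM in EV and 169, 205 and 247 CPM in PTX4-OE. It was lower in PTX4-OE in the pairs numbered 1 and 2 and higher in the pair numbered 3, where the difference was 0.68 on the log2 scale against -0.30 and -0.19. SCAP, the escort of SREBP2, ranged from 105 to 120 CPM over the 6 libraries.

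Among genes of delivery and storage, STARD4, a soluble sterol carrier, had 27.6, 28.5 and 20.6 CPM in EV and 24.4, 27.8 and 29.6 CPM in PTX4-OE, so that, as for INSIG1, PTX4-OE was lower in the pairs numbered 1 and 2 and higher in the pair numbered 3. SOAT1, which esterifies cholesterol for storage, had 56.0, 56.0 and 43.5 CPM in EV and 56.9, 47.6 and 44.5 CPM in PTX4-OE. NPC1, the lysosomal membrane exporter of cholesterol, had 35.5, 32.6 and 39.5 CPM in EV and 35.5, 33.2 and 42.2 CPM in PTX4-OE. SOAT1 was lowest and NPC1 highest in the libraries numbered 3 of both constructs. Their blocked log2 fold changes were 0.10 ± 0.098 for STARD4, -0.059 ± 0.061 for SOAT1 and 0.042 ± 0.057 for NPC1, with edgeR adjusted p = 0.831, 0.843 and 0.892. NPC2 (-0.047 ± 0.059) and LIPA (0.014 ± 0.052), the lysosomal lipase that frees cholesterol from its esters, did not pass either.

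On the efflux side, ABCA1 had 78.3, 97.5 and 126 CPM in EV and 84.3, 92.0 and 131 CPM in PTX4-OE. The libraries numbered 3 were the highest of both constructs, and the blocked log2 fold change was 0.027 ± 0.051 (edgeR adjusted p = 0.931). ABCG1 had 0.253, 0.307 and 1.68 CPM in EV and 0.390, 0.706 and 1.59 CPM in PTX4-OE. APOE had 0.980, 0.886 and 1.51 CPM in EV and 0.529, 1.09 and 1.79 CPM in PTX4-OE. Both low-count genes were highest in the libraries numbered 3, and the ranges of the constructs overlapped. Their blocked log2 fold changes were 0.42 ± 0.36 and -0.055 ± 0.31, with edgeR adjusted p = 0.801 and 0.977. Single libraries set the direction of both in the fit without blocks. ABCG1 went from 0.25 to 1.67 without EV replicate 3 and to -0.47 without PTX4-OE replicate 3, and APOE from 0.018 to 0.37 without PTX4-OE replicate 1 and to -0.48 without PTX4-OE replicate 3.

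MYLIP had 24.8, 24.7 and 26.2 CPM in EV and 23.9, 23.6 and 28.5 CPM in PTX4-OE, and a blocked log2 fold change of 0.0040 ± 0.065. NR1H3 had 17.6, 16.9 and 17.01 CPM in EV and 18.0, 18.97 and 17.1 CPM in PTX4-OE, and 0.068 ± 0.072. NR1H2 had 35.1, 33.5 and 33.7 CPM in EV and 38.2, 32.9 and 37.0 CPM in PTX4-OE, and 0.080 ± 0.059. The receptors thus varied little among all 6 libraries while ABCA1, a target of theirs, varied with the replicate number.

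**Figure D3:**
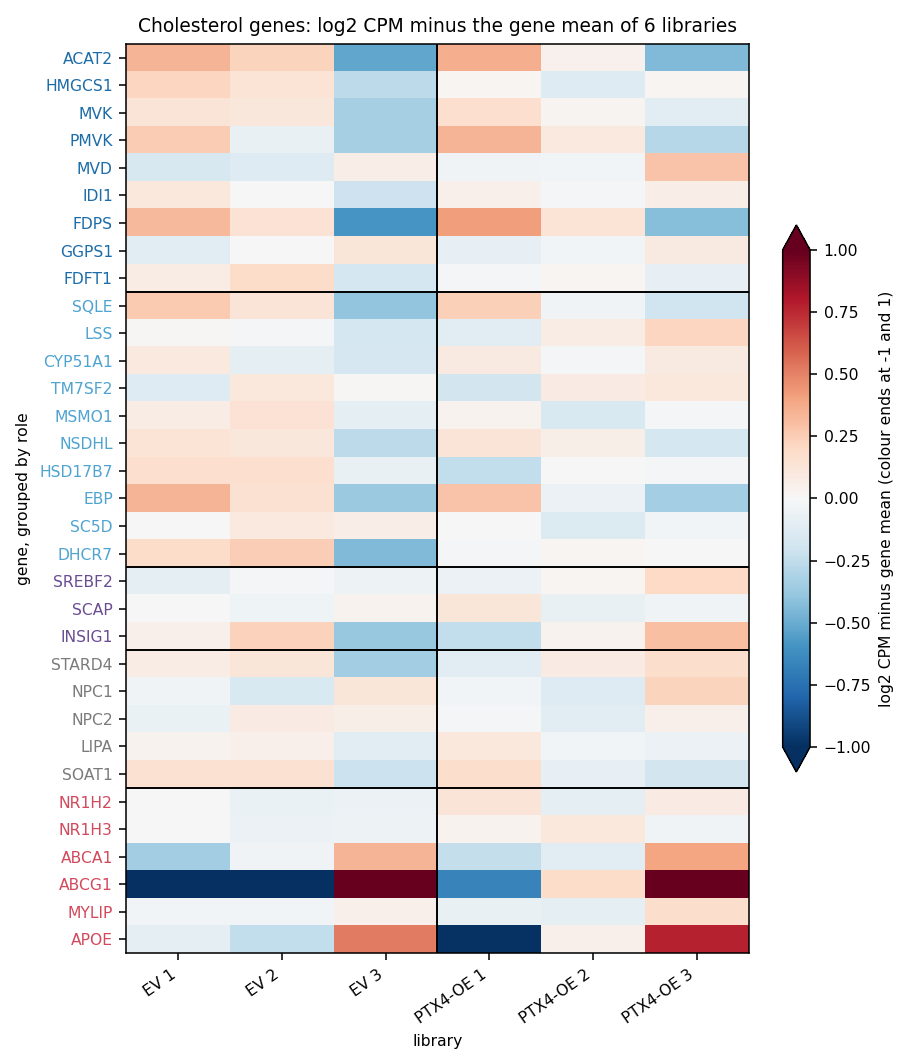
Log2 CPM of each cholesterol gene minus its mean over the 6 libraries (colour, red above and blue below the mean, with the scale ending at -1 and 1), in columns by library and rows by role. The columns numbered 3 of both constructs share blue cells for ACAT2, FDPS, EBP and SQLE and red cells for ABCA1, ABCG1 and APOE, while INSIG1 is blue in EV replicate 3 and red in PTX4-OE replicate 3.

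Replicate number, by contrast with the construct, separated many of these genes. The libraries numbered alike in the 2 constructs were compared with the other numbers in a joint test of replicate number, with construct in the model. By that test 14 of the 33 genes (42.4%) were called, where 51.6% of all tested genes were called, so the share was below the background. Of the 14, 8 were lower in number 3 than in number 1 (24.2% of the 33, background 27.4%) and 6 were higher (18.2%, background 24.1%). The labels do not say what a number marks, and numbers have no order.

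Among the called genes, most synthesis genes were lower and the efflux genes higher in number 3. Of the 21 SREBP2 synthesis genes, 7 (33.3%, background 27.4%) were called and lower in number 3. Another 2 (9.52%, background 24.1%), MVD and GGPS1, were called and higher. Of the 5 LXR efflux genes, 3 were called and higher in number 3 and 0 were called and lower, with the same backgrounds. Counted by range, both libraries numbered 3 lay below all 4 others for 8 of the 21 synthesis genes (38.1%, against 28.3% of all tested genes) and for 0 of the 5 efflux genes. Both lay above all 4 others for 2 of the 21 (9.52%) and for 4 of the 5 efflux genes, ABCA1, ABCG1, MYLIP and APOE, against 27.8% of all tested genes. The median difference of number 3 from number 1 was -0.14 on the log2 scale over the synthesis genes, 0.66 over the efflux genes and 0.026 over all genes tested. The efflux median was the value of ABCA1 itself. ABCG1 and APOE, which lay above it, had low counts, and MYLIP (0.17) and NR1H3 (-0.061) were not called. The difference between these lists was not tested.

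FDPS had 158, 140 and 83.7 CPM in EV and 168, 139 and 93.8 CPM in PTX4-OE. Its log2 difference of number 3 from number 1 was -0.88 ± 0.062, and the joint test gave an edgeR adjusted p of 9.01e-08. ACAT2, the thiolase that begins the pathway, had 69.8, 64.4 and 38.5 CPM in EV and 70.9, 57.1 and 40.6 CPM in PTX4-OE, a difference of -0.83 ± 0.071 (edgeR adjusted p = 5.57e-07). In both genes the libraries numbered 3 of both constructs were well below all others. The remaining called genes that were lower in number 3 were EBP (-0.67), PMVK (-0.61), SQLE (-0.54), SOAT1 (-0.36), NSDHL (-0.35), a sterol dehydrogenase, and FDFT1 (-0.15).

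ABCA1 was higher in number 3 than in number 1 by 0.66 ± 0.062 on the log2 scale (edgeR adjusted p = 1.23e-06). ABCG1 differed by 2.36 ± 0.44 (edgeR adjusted p = 5.39e-04) and APOE by 1.15 ± 0.37 (edgeR adjusted p = 0.0405), both at low counts. MVD (0.27), NPC1 (0.20) and GGPS1 (0.20), which makes geranylgeranyl pyrophosphate for protein prenylation, were the other called genes that were higher. The 10 enzymes after squalene included 3 called genes (30%), all lower, near the background of 27.4%, and SREBF2, SCAP and INSIG1 included 0. DESeq2's likelihood ratio test called 9 of the 33, all among the 14, and 36.3% of the genes it tested.

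**Figure D4:**
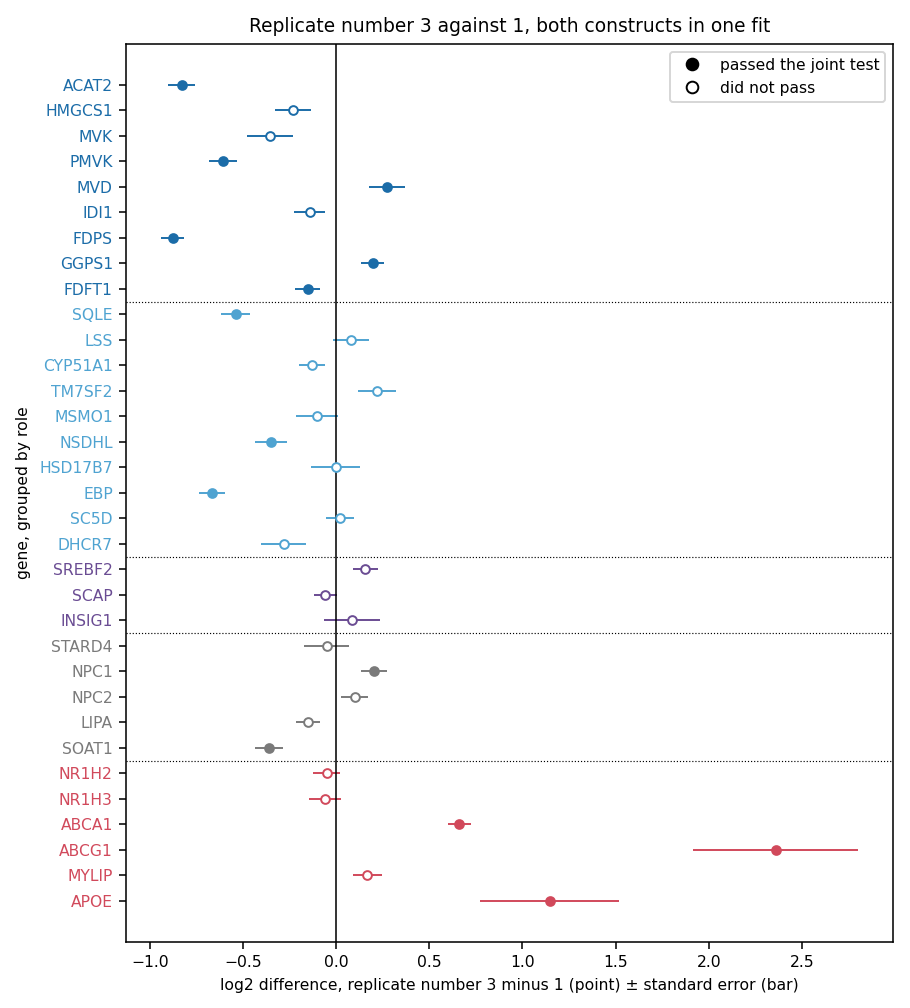
Log2 difference of replicate number 3 from number 1 for each cholesterol gene (points) with its standard error (bars), from a fit that holds both constructs. Filled points passed the joint test of replicate number, and they reach from -0.88 for FDPS to 2.36 for ABCG1.

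The libraries numbered 3 were also set against the other libraries of their own construct. In EV, replicate 3 lay below the mean of replicates 1 and 2 for 17 of the 21 SREBP2 synthesis genes, with a median difference of -0.38 on the log2 scale. In PTX4-OE, replicate 3 lay below that mean for 8 of the 21, with a median of 0.043. Of all 17627 genes tested, replicate 3 lay below it for 8452 in EV and 8486 in PTX4-OE. The 5 efflux genes had medians of 0.53 in EV and 0.57 in PTX4-OE, both the values of ABCA1, and all genes tested had 0.024 and 0.019. Whether the constructs differ in this was not tested, and each construct has 1 library of each number.

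The same pattern appears as the difference of PTX4-OE from EV within each numbered pair. It was positive for 7 of the 21 synthesis genes in pair 1, 4 in pair 2 and 19 in pair 3, where 54.8%, 48.9% and 49.9% of all tested genes were positive. The medians were -0.031, -0.080 and 0.17 on the log2 scale. Among the 21, 12 (57.1%) were negative in pairs 1 and 2 and positive in pair 3, against 10.1% of all tested genes. They included HMGCS1, SQLE, INSIG1, STARD4 and DHCR7, a late sterol reductase. This order of signs was chosen after the values were seen and was not tested, and each pair holds 1 library of each construct. DHCR7 had 28.6, 30.0 and 18.6 CPM in EV and 25.0, 25.5 and 25.3 CPM in PTX4-OE, so that EV replicate 3 stood alone. For IDI1, LSS, INSIG1 and STARD4, replicate 3 was the lowest library of EV and the highest of PTX4-OE, an arrangement found in 3.15% of all tested genes. For the LXR efflux genes the difference was positive for 3, 3 and 4 of the 5, with medians of 0.032, 0.17 and 0.056. Over all 33 genes, the 3 pairs shared a sign for 5 genes, all positive, whereas 30.5% of all tested genes shared one.

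**Figure D5:**
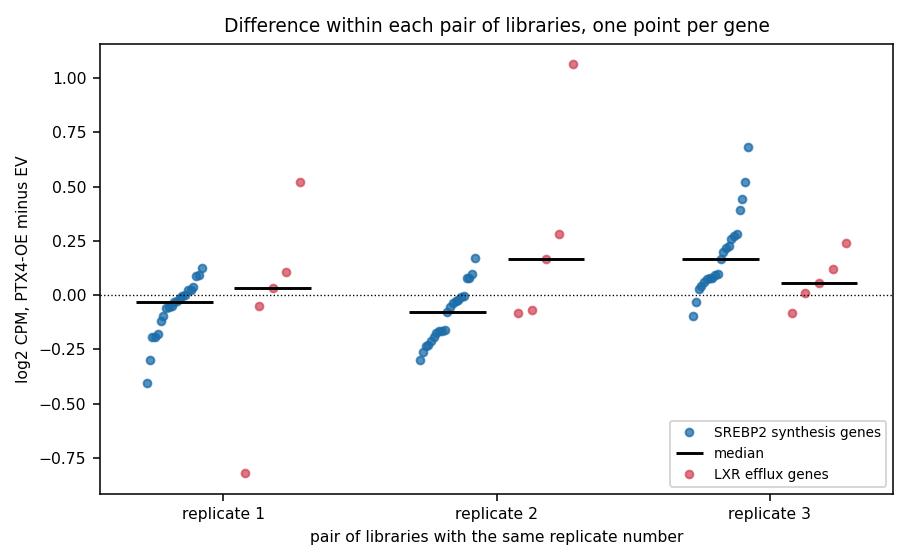
Log2 CPM of PTX4-OE minus EV within each pair of libraries with the same replicate number, with 1 point for each SREBP2 synthesis gene (blue) or LXR efflux gene (red) and a black bar at the median. The blue points lie mostly below 0 in pairs 1 and 2 and mostly above 0 in pair 3, where the largest value is 0.68 for INSIG1.

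The pair numbered 3 also decided 2 calls. With both libraries numbered 3 left out and the block kept, INSIG1 was called lower in PTX4-OE with a log2 fold change of -0.26 ± 0.065 (edgeR adjusted p = 0.00873). HMGCS1 was called lower as well, at -0.24 ± 0.067 (edgeR adjusted p = 0.0333), where 1.2% of all tested genes were called. With all 6 libraries INSIG1 had 0.062 ± 0.12 and neither gene was called. With the pair numbered 1 or 2 left out, 0 of 33 were called. INSIG1 was then above 0, at 0.247 and 0.195, and so was HMGCS1, at 0.0147 and 0.0442. The 2 pairs left give a thin estimate of the spread, and the difference between the pairs was not tested.

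Further genes of the pathway that are not among the 33 were read from a list of 47 covering SREBP processing, sterol carriers, lipoprotein and scavenger receptors, other LXR targets and the branches to ubiquinone, dolichol and prenylation. Of these, 43 passed the filter on low counts, and 0 were called in either fit of the construct. With the block, 5 of the 43 (11.6%) had an unadjusted p under 0.05, near the 8.78% of all tested genes (1548 of 17627). They were ABCA7, LRP1, SREBF1, VLDLR and PLTP, of which SREBF1, VLDLR and PLTP were picked with their values known. The list's 4 genes furthest from 0 were CYP27A1 (-0.53), ABCA7 (-0.27), CD36 (0.23) and LRP1 (0.23). ABCA7, a lipid transporter related to ABCA1, had 34.5, 35.8 and 54.9 CPM in EV and 25.6, 31.7 and 47.1 CPM in PTX4-OE. It was lower in PTX4-OE in all 3 pairs, with the smallest adjusted p of the list (edgeR adjusted p = 0.0992), which missed the threshold. LRP1, an endocytic receptor for apolipoprotein E, was higher in all 3 pairs (edgeR adjusted p = 0.305). CYP27A1, which makes an oxysterol, and the scavenger receptor CD36 were at low levels, 0.297 and 0.367 TPM in EV. By replicate number 26 of the 43 (60.5%) were called, against 51.6% of all tested genes. Of these, 20 were lower (46.5% of the 43, background 27.4%) and 6 higher (13.95%, background 24.1%) in number 3 than in number 1.

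Some of these levels depend on how reads were assigned. Expected counts were fractional in at least 1 library for 12 of the 33 genes, and in all 6 for ACAT2, CYP51A1, EBP, INSIG1 and SREBF2. ACAT2 overlaps TCP1 and SOD2 on the opposite strand, LIPA overlaps genes of the IFIT family, and NR1H3 overlaps ACP2. The labels do not say whether counting used the strand, and reads of those overlaps cannot be told apart.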

How the data were processed

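The 6 libraries were RNA-seq of THP-1 cells carrying the empty vector (3) or the PTX4 construct (3). FastQC 0.11.5, STAR, featureCounts and GRCh38 are named in the submitters' processing notes, without settings. The authors deposited expected counts, not normalized and with 7.94% of values not whole by a step not given in the sources used here, and TPM, which the authors scaled to 1000000 per library after a correction for length. A deposited table of FPKM was not used here.

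The cholesterol genes, the lists and the tests were chosen with earlier results of these data known. Identifiers were named with GENCODE release 44, and 29 pairs listed at both X and Y were summed. Rounded expected counts were compared by edgeR 4.0.16 under R 4.3.3 (filterByExpr, TMM, quasi-likelihood F test), adjusted by Benjamini-Hochberg over 17627 genes with a threshold of 0.05. The test was run on simulated data first. Each standard error was derived from a gene's fold change and F statistic, in which the spread is partly shared over genes. CPM values carry the TMM factors, and log2 CPM used a prior count of 2. The construct fit had no block. Same-numbered libraries deviated together from their group means, with correlations of 0.632, 0.130 and 0.699 for numbers 1 to 3, all over the limit of 0.1 though number 2 only narrowly. EV replicate 2 with PTX4-OE replicate 1 was over the limit too (0.117), so the limit does not set number 2 apart. The numbers come from the labels and so they were treated as pairs, and a blocked fit stands beside the unblocked one. P-values measure the spread between these libraries. No pair of libraries agreed within sampling noise (smallest chi-square per degree of freedom 6.54), and each was counted once.

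Values in every library are given for the 2 genes of each role furthest from 0 in the blocked fit and for 12 anchor genes (HMGCS1, SQLE, IDI1, INSIG1, SREBF2, NPC1, SOAT1, NR1H3, ABCA1, ABCG1, MYLIP and APOE). FDPS, ACAT2 and DHCR7 were added after their values were seen. Alternatives were DESeq2 1.42.0 and its size factors, no filter on low counts, limma 3.58.1 on log2(TPM + 1) and log2(TPM + 0.1), each library or pair left out, and mitochondrial genes left out. The comparisons of replicate 3 with 1 and 2, the counts by range and the count by order of signs over the pairs were added after seeing the data. Promoter windows came from RefSeq, matched by symbol. Joins used pandas 2.3.3 (Python 3.11.15) and plots matplotlib 3.10.9.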

Additional observations from a re-analysis of the deposited data

How the results depend on the processing

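The number of cholesterol genes called for the construct was 0 of 33 under every setting that kept all 6 libraries: with and without the replicate block, DESeq2 or its size factors, no filter on low counts, log2(TPM + 1), log2(TPM + 0.1) or no mitochondrial genes. Over the settings that left out 1 library or 1 pair it ran from 0 to 2, the 2 being INSIG1 (-0.259) and HMGCS1 in the replicate block without the pair numbered 3. INSIG1 was above 0 with all libraries, in fits with and without the block. The block changed no call among the 33, and it raised the calls over all genes from 1 to 46 (DESeq2 from 3 to 25). Without a filter on low counts, the blocked fit called 296 of all genes. Leaving out pair 1, 2 or 3 gave 88, 32 and 208.

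The median log2 fold change of the LXR efflux genes, 0.0261, ran from -0.200 without PTX4-OE replicate 3 to 0.221 without EV replicate 3. That of the SREBP2 synthesis genes ran from -0.102 without EV replicate 3 to 0.0836 without EV replicate 1. The sign of single uncalled genes differed from the fit without blocks for at most 12 of the 33 in any setting. By replicate number, the 14 genes called became 9 with DESeq2's likelihood ratio test, where 36.3% of the genes it tested were called. For number 2 against number 1 alone they became 5, against 21.2% of all tested genes. Without the filter on low counts 16 of the 33 were called, a share above the 27.7% of the 34313 genes then tested, which include genes with low counts. Other settings gave 13 or 14, against 47.6% to 54.6% of all tested genes. The cause was not tested. Depth limits ABCG1 and APOE most, with as few as 8 and 19 expected counts in a library.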
